A study of Mus musculus with 16 samples.

Results

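Bcl2, Bcl2l1 and Bak1 are 3 genes of the Bcl2 family, chosen by symbol from a deposited table of RNA levels in cultured mouse CD4 T cells. They are 3 of the 17850 rows of that table and 3 of its 8552 named genes. Each of the 3 names could be tied to its row of library values, under the identifiers ENSMUSG00000057329 for Bcl2, ENSMUSG00000007659 for Bcl2l1 and ENSMUSG00000057789 for Bak1.

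Every library came from highly purified CD4 T cells of C57BL/6 J mice aged 2 months with the genotype Rosa26-CreERT2 +/- Sin3AF/F, so the controls also carry the floxed Sin3a alleles and the tamoxifen-inducible Cre, which is driven from the ubiquitous Rosa26 locus. Sin3A is the scaffold protein of a histone deacetylase corepressor complex. Deficient Th17 cells (libraries D3TAM955, D3TAM957, D3TAM959 and D3TAM960) had 6 days of culture with IL-7 and tamoxifen, followed by 3 days of Th17 polarization. Sufficient Th17 cells (D3955, D3957, D3959 and D3960) had the same 6 and 3 days without tamoxifen. Deficient IL-7 cells (BASALTAM955, BASALTAM957, BASALTAM959 and BASALTAM960) were collected after the 6 days with IL-7 and tamoxifen, and sufficient IL-7 cells (BASAL955, BASAL957, BASAL959 and BASAL960) after 6 days with IL-7 alone. The last 3 digits of a library's name recur in all 4 groups, and the labels give female for the number shared by D3TAM959, D3959, BASALTAM959 and BASAL959 and male for the others. Beyond that difference in sex, the labels do not say that the libraries are separate mice. The p-values below therefore measure the spread between these libraries, which may be technical in part. Cells given tamoxifen without floxed Sin3a alleles were not analysed here, so the deletion and the drug cannot be told apart. Th17 cells also had 3 more days in culture than IL-7 cells, so time and polarization cannot be told apart either.

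The Bcl2 family decides whether a cell keeps its mitochondrial outer membrane intact. Survival proteins, among them Bcl2 and Bcl-xL, the main protein of Bcl2l1, together hold the pore-forming proteins Bak1 and Bax in check. BH3-only proteins such as Bim relieve that restraint, after which cytochrome c leaves the mitochondria and caspases are activated. In T cells IL-7 is known to maintain naive and memory cells in part by keeping Bcl2 high, while activation through the antigen receptor and CD28 raises Bcl-xL.

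The start-site windows of the 3 genes are shown because the genes have different promoters and, as given below, different patterns over the 4 groups. They run from 250 bases before to 50 bases after the annotated start, on the minus strand of GRCm38.p6 in RefSeq, and all 3 symbols matched that annotation. Capitals mark matches to either of a pair of motifs, the GC box GGGCGG, on either strand, and the ETS core CCGGAAG.
Bcl2, chr1:106714241-106714540: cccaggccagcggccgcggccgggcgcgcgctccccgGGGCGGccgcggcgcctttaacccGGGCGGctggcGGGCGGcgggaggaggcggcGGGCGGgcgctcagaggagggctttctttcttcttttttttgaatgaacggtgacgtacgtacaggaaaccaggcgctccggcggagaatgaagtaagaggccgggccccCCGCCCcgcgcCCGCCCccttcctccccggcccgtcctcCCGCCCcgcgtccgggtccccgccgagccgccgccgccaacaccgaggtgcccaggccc
Bcl2l1, chr2:152831679-152831978: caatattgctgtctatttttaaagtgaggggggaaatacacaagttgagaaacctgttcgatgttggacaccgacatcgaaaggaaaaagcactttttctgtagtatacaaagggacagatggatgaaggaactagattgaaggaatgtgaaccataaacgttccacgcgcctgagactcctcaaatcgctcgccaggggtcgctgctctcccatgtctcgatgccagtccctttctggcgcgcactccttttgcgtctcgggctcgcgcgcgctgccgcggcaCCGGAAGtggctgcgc
Bak1, chr17:27028578-27028877: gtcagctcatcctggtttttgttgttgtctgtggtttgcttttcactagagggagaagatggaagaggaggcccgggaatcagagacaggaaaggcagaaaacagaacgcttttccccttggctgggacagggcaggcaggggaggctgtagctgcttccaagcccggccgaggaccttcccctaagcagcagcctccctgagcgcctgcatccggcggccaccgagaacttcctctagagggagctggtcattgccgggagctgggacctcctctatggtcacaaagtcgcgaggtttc
The Bcl2 window is 76.0% G and C, holds 44 CpG dinucleotides and has 7 GC boxes, a motif present in 35.7% of the 32851 windows of this length. The Bcl2l1 window shown is the most upstream of 3 annotated for that gene, with 52.3% G and C, 22 CpG dinucleotides and 1 ETS core near its start site, a motif in 8.86% of windows. The Bak1 window has 58.3% G and C and 11 CpG dinucleotides, against a median of 52.7% G and C over all windows. Both strands were also searched for the AP-1 motif TGANTCA, the gamma-activated site TTCNNNGAA and the cAMP response element TGACGTCA, which occur in 7.81%, 8.30% and 1.79% of windows. None of these letters are in the 3 windows shown, and no marked motifs overlap. Such matches are descriptions of sequence and not of binding.

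RNA was selected by poly(A), and the restored read totals ran from 19632501 to 28322585 per library. Values are normalized counts, which are reads divided by the authors' scaling factor of the library. Sin3a itself had 1774 ± 49.8 normalized counts in deficient and 2106 ± 181 in sufficient Th17 cells, and 2211 ± 98.2 in deficient and 2524 ± 249 in sufficient IL-7 cells (SD, n = 4 each). The labels do not name the deleted exons, and reads from the remaining exons are counted too, so this checks the labels only in part. Of 11 CD4 T cell markers 7 were measured, and their summed level was 38503 to 41937 in deficient and 62696 to 67042 in sufficient Th17 cells, and 72484 to 78756 in deficient and 75073 to 86802 in sufficient IL-7 cells. In Th17 cells those sums were lower in deficient libraries, as the 3 genes were, and their part in the results was not tested; only markers that the table lists as lower could be measured. In bulk RNA, fewer cells of a type and less RNA per cell cannot be told apart.

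Names stand in the table only beside genes that the authors list as lower in deficient than in sufficient Th17 cells, and the same comparison was used to tie names to rows. The direction of that comparison is therefore fixed for every named gene and supports nothing here. The comparison of IL-7 cells takes its SE and p-value from a spread estimated over all 16 libraries, Th17 libraries included. Its log2 change uses none of the libraries behind the listing. The comparisons of the 2 stages use the Th17 libraries and are touched by it: among named rows 49.7% fell and 28% rose in deficient cells, against 40.6% and 37.1% of all tested rows, and 34.7% fell and 40.8% rose in sufficient cells, against 40% and 36.2%. The comparisons share libraries: each group enters several of them.

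Bcl2, the founding survival gene of the family, was most abundant in IL-7 cells and far lower after Th17 polarization, with the lowest levels in deficient Th17 cells. Deficient Th17 libraries D3TAM955, D3TAM957, D3TAM959 and D3TAM960 held 2012, 5205, 3901 and 3845 normalized counts, and sufficient Th17 libraries D3955, D3957, D3959 and D3960 held 6099.7, 7802, 7129 and 8406. D3TAM955 and D3955 were the lowest of their groups, and the groups did not overlap. Deficient IL-7 libraries held 19682, 18096, 19269 and 18640, against 24471, 23659, 22897 and 21597 in sufficient IL-7 libraries in the same order. The IL-7 groups did not overlap either, and both stood well above every Th17 library. Means rose in the order of 3741 ± 1312 in deficient Th17 cells, 7359 ± 988 in sufficient Th17 cells, 18922 ± 697 in deficient IL-7 cells and 23156 ± 1222 in sufficient IL-7 cells (SD, n = 4 each), and no neighbours in that order shared any range.

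**Figure D1:**
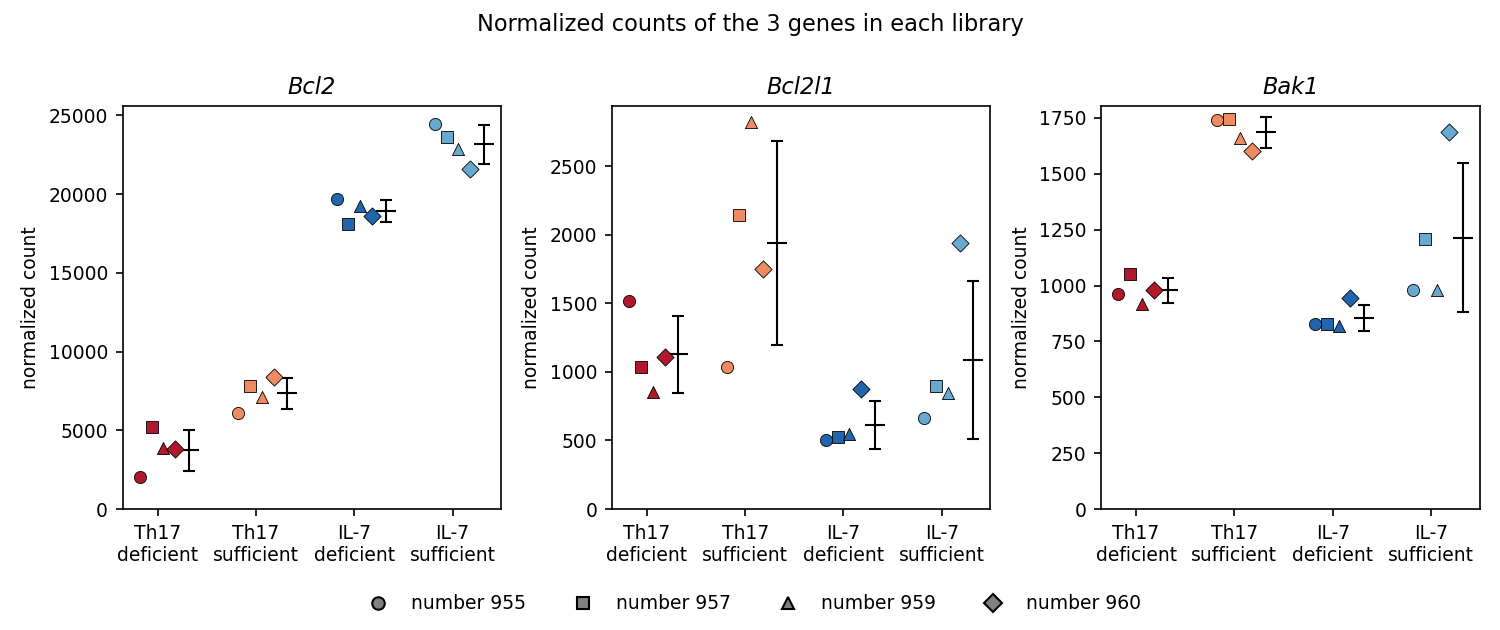
Normalized counts of Bcl2, Bcl2l1 and Bak1 (vertical axes from 0) in the 4 libraries of each group, with marker shapes for the library numbers, and the mean and SD as a bar beside the points. Bcl2 is at most 8406 in Th17 libraries and at least 18096 in IL-7 libraries, while the Bcl2l1 and Bak1 groups lie closer together, with BASALTAM960 and BASAL960 the highest of their groups.

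Between the stages Bcl2 fell strongly whether or not Sin3a was deleted. In deficient cells the log2 change of Th17 over IL-7 cells was -2.42 (SE 0.18, limma p adjusted over 14588 tested rows = 9.37e-10, with 0.05 as the threshold throughout), and in sufficient cells it was -1.66 (SE 0.18, adjusted p = 1.75e-07). Bcl2 was the 1 gene of the 3 to fall, in comparisons in which 40.6% of all tested rows fell in deficient and 40% in sufficient cells. The level in Th17 cells was 0.187 of that in IL-7 cells in the deficient pair and 0.316 in the sufficient pair, on the fitted log2(value + 1) scale. Every Th17 library was lower than every IL-7 library in both pairs, which fixes the order within each library number. Both calls held in all 32 alternative settings.

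With deletion, Bcl2 was lower in Th17 cells, and its change in IL-7 cells was smaller. In Th17 cells it was -1.05 (SE 0.18, 95% interval -1.43 to -0.66, adjusted p = 0.000105), in a comparison where 28.5% of all tested rows and 54.6% of tested named rows were called lower. The authors' deposited table gives -0.98 for it, with a standard error of 0.20. In IL-7 cells the change was -0.29 (SE 0.18, 95% interval -0.68 to 0.10, adjusted p = 0.455), with group ranges apart but not past the threshold in the fit of all libraries. Fitted on the IL-7 libraries alone, whose Bcl2 levels spread less than those of Th17 libraries, the same -0.29 had an adjusted p of 0.0453, and over all alternatives the adjusted p ran from 0.0453 to 0.743. The difference between these deletion effects was -0.75 on the log2 scale (SE 0.26, 95% interval -1.30 to -0.21, adjusted p = 0.0299), in a comparison where 17.9% of all tested rows and 34.2% of named rows were past the threshold in this direction. The Th17 deletion change is part of this difference and also put the gene among the named ones, so its sign is weighted by the listing (median -0.38 over named rows, against -0.01 over all tested rows). This call rested on single libraries. It missed the threshold without the sufficient Th17 libraries D3957 (adjusted p = 0.0549) or D3960 (0.0632) or the deficient IL-7 library BASALTAM955 (0.0512), each left out alone, and over all alternatives the adjusted p ran from 0.00426 to 0.114. Deficient Th17 library D3TAM955 is the lowest of all for Bcl2, and without it the difference was -0.48 (adjusted p = 0.0176).

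**Figure D2:**
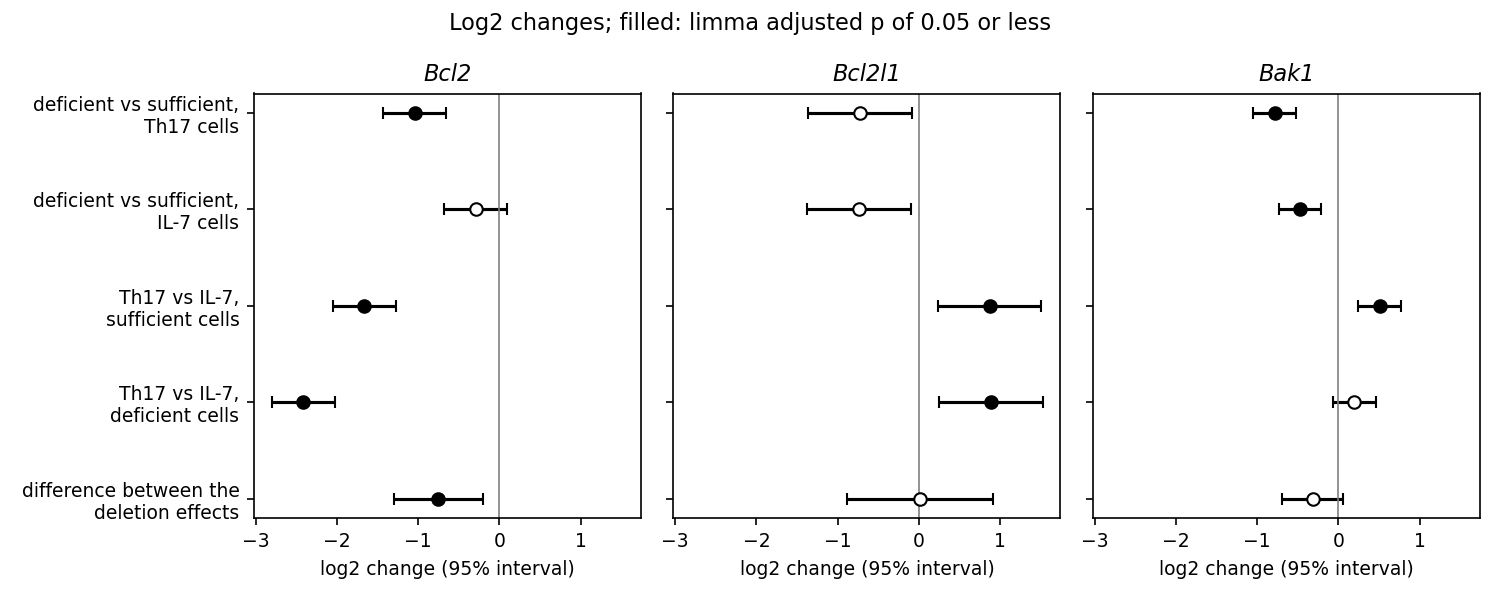
Log2 changes of Bcl2, Bcl2l1 and Bak1 with 95% intervals in 4 comparisons and in the difference between the deletion effects (Th17 minus IL-7). Filled points have a limma adjusted p of 0.05 or less; all Bcl2 values lie left of 0, and both stage changes of Bcl2l1 and Bak1 lie right of it.

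Reads of Bcl2 could not be separated fully from an antisense gene. D630008O14Rik lies on the opposite strand, where GENCODE M21 gives it 2056 exon bases with 558 of them shared with Bcl2 exons. Its level followed that of Bcl2: Pearson's r over the 16 libraries was 0.999 on the log2 scale, the highest of 6469 named genes searched. Within the groups r was 0.998 in deficient and 0.943 in sufficient Th17 cells, and 0.692 in deficient and 0.983 in sufficient IL-7 cells. The 16 points fall in separate groups that share their libraries and scaling, so r describes this set only. D630008O14Rik was 10.7 ± 0.440% of the Bcl2 level in deficient and 11.8 ± 0.554% in sufficient Th17 cells, and 11.3 ± 0.510% in deficient and 11.6 ± 0.254% in sufficient IL-7 cells (SD, n = 4 each). The library kit marks strand, but the strand setting of the counting is not given in the sources used here, so reads of both genes in the shared bases cannot be told apart.

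**Figure D3:**
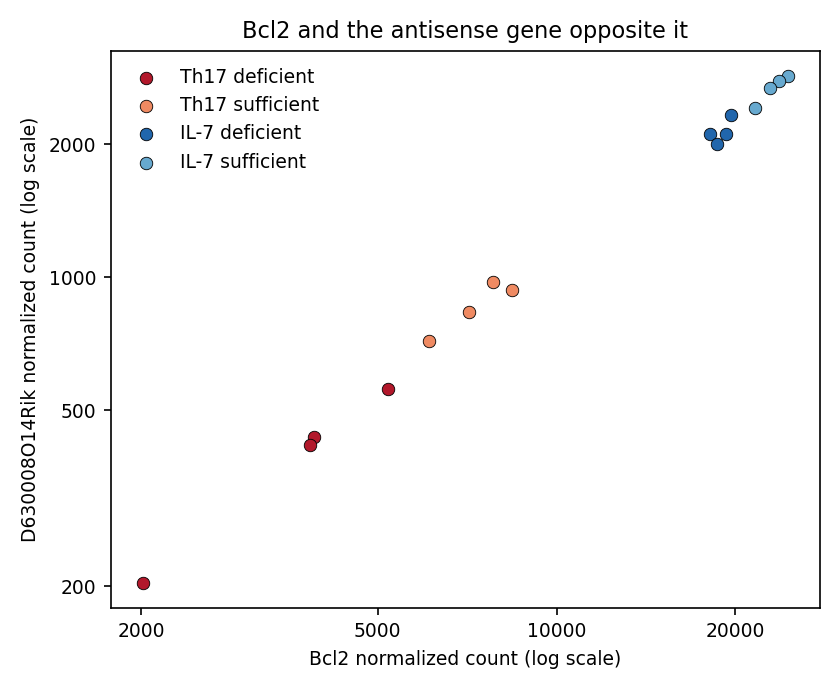
Normalized counts of D630008O14Rik against Bcl2 in the 16 libraries, both axes on a log scale, coloured by group. The points lie along 1 line, with D630008O14Rik between 10.1% and 12.5% of Bcl2 in every library.

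Bcl2l1, which encodes the survival protein Bcl-xL, moved against Bcl2 between the stages: it was higher in Th17 than in IL-7 cells. The deficient Th17 libraries, ordered as for Bcl2, held 1514, 1034, 854 and 1109 normalized counts, and sufficient Th17 libraries held 1038, 2141, 2819 and 1752. D3TAM955 was the highest of the deficient and D3955 the lowest of the sufficient Th17 libraries, so the groups overlapped and 3 of 4 numbers were lower in deficient cells. Deficient IL-7 libraries held 504, 522, 547 and 876, against 665, 897, 845 and 1942 in sufficient IL-7 libraries. BASALTAM960 and BASAL960 were the highest of their groups, and the IL-7 groups overlapped while all 4 numbers were lower in deficient cells. Bcl2l1 averaged 1128 ± 279 in deficient and 1938 ± 744 in sufficient Th17 cells, and 612 ± 177 in deficient and 1087 ± 578 in sufficient IL-7 cells (SD, n = 4 each), and every pair of neighbours in the order of these means overlapped.

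The stage change of Bcl2l1 was close to the same size in deficient and sufficient cells. In deficient cells Bcl2l1 rose by 0.89 on the log2 scale (SE 0.30, adjusted p = 0.0127), higher in 4 of 4 numbers, where 37.1% of tested rows rose. In sufficient cells the rise was 0.87 (SE 0.30, adjusted p = 0.0145), higher in 3 of 4 numbers, where 36.2% of tested rows rose. The sufficient call missed the threshold without sufficient Th17 library D3959 (0.66, adjusted p = 0.0636) or sufficient IL-7 library BASAL955 (0.68, adjusted p = 0.0599), and its adjusted p ran from 0.000432 to 0.154 over the alternatives. Group ranges overlapped in both comparisons.

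With deletion, the log2 change of Bcl2l1 was -0.72 in Th17 cells (SE 0.30, 95% interval -1.36 to -0.08, adjusted p = 0.0510) and -0.74 in IL-7 cells (SE 0.30, 95% interval -1.38 to -0.10, adjusted p = 0.194). Neither passed the threshold. Without sufficient IL-7 library BASAL960 the IL-7 value was -0.42 (adjusted p = 0.498), and over the alternatives its adjusted p ran from 0.101 to 0.572. The authors' deposited table gives -0.78 with a standard error of 0.28 and an adjusted p of 0.0131 for the Th17 comparison. The Th17 value lay near the threshold and passed it in 11 of 32 alternatives, among them without deficient Th17 library D3TAM955 (-0.87, adjusted p = 0.0306), sufficient Th17 library D3955 (-0.99, adjusted p = 0.00751), deficient IL-7 library BASALTAM960 (adjusted p = 0.0441), or sufficient IL-7 libraries BASAL955 (adjusted p = 0.0427) or BASAL960 (adjusted p = 0.0157). Its adjusted p ran from 0.00345 to 0.388 over the alternatives. The difference between the deletion effects was 0.02 (SE 0.43, 95% interval -0.89 to 0.92, adjusted p = 0.981), an interval wide enough to hold the difference seen for Bcl2.

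Bak1, a pore-forming effector of mitochondrial apoptosis, was lower in deficient than in sufficient cells at both stages. The listing fixes that direction in Th17 cells, and the call in IL-7 cells depended on single libraries, as given below. In the same order, deficient Th17 libraries held 961, 1054, 918 and 982 normalized counts, and sufficient Th17 libraries held 1741, 1743, 1658 and 1601. These groups were tight and far apart. Deficient IL-7 libraries held 827, 827, 821 and 945, against 982, 1206, 979 and 1689 in sufficient IL-7 libraries. Those groups did not overlap, though the highest deficient and the lowest sufficient library were close, and BASALTAM960 and BASAL960 were the highest of their groups. Bak1 averaged 979 ± 56.6 in deficient and 1686 ± 69.1 in sufficient Th17 cells, and 855 ± 60.04 in deficient and 1214 ± 334 in sufficient IL-7 cells (SD, n = 4 each). In the order of these means, neighbouring groups overlapped each time.

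In Th17 cells the deletion change of Bak1 was -0.79 (SE 0.13, 95% interval -1.05 to -0.52, adjusted p = 3.89e-05), and the authors' deposited table gives -0.78 with a standard error of 0.14. That comparison called 28.5% of all tested rows and 54.6% of tested named rows lower. In IL-7 cells Bak1 fell by 0.47 on the log2 scale (SE 0.13, 95% interval -0.74 to -0.21, adjusted p = 0.0405), in a comparison that called 2.17% of all tested rows and 3.37% of named rows lower. Bak1 was the only one of the 3 genes past the threshold there. The call stood close to it and was lost in 14 of 32 alternatives, with adjusted p from 0.0184 to 0.317. Single libraries that ended it when left out were D3TAM959, D3TAM960, D3957, D3959, BASALTAM955, BASALTAM957, BASALTAM959, BASAL957 and BASAL960, with adjusted p between 0.0513 and 0.112. Without BASAL960 the change itself was -0.30 (adjusted p = 0.0640).

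Markers of B cells were also lower in deficient than in sufficient IL-7 cells. The sum of Cd79a and Blk, the 2 of 7 B cell markers measured, was 114 to 181 normalized counts in deficient and 283 to 890 in sufficient IL-7 libraries. The corresponding sums for Cd8b1 and Nkg7, of CD8 T and NK cells, were 497 to 805 in deficient and 710 to 938 in sufficient IL-7 libraries. Of the B cell markers, Blk averaged 68.6 in deficient and 414 in sufficient IL-7 cells, and Cd79a 70.2 and 105. Ranges overlapped for Cd68, of myeloid cells, at 104 to 132 in deficient and 92.1 to 129 in sufficient IL-7 libraries. They also overlapped for Alas2, of erythroid cells, at 10.6 to 22.0 in deficient and 10.9 to 15.2 in sufficient IL-7 libraries. In Th17 libraries the B cell sum was 53.3 to 180.0 in deficient and 126 to 300.2 in sufficient cells, the CD8 T and NK cell sum 107 to 214 in deficient and 213 to 659 in sufficient cells, and Cd68, the 1 of 8 myeloid markers measured, 52.5 to 66.8 in deficient and 120.5 to 175 in sufficient cells. The part of these cells in the values of the 3 genes was not tested.

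Between stages the log2 change of Bak1 was 0.20 in deficient cells (SE 0.13, 95% interval -0.07 to 0.46, adjusted p = 0.163), and in sufficient cells Bak1 rose by 0.51 (SE 0.13, adjusted p = 0.00127). The sufficient groups overlapped, with Bak1 higher in Th17 cells in 3 numbers and lower in 1. In that comparison 36.2% of all tested rows and 40.8% of named rows rose. The deficient value passed the threshold without sufficient IL-7 library BASAL960 (adjusted p = 0.0296), with adjusted p from 0.0195 to 0.446 over the alternatives. The difference between the deletion effects on Bak1 was -0.31 (SE 0.18, 95% interval -0.69 to 0.06, adjusted p = 0.177). Without BASAL960 it was -0.48 (adjusted p = 0.00309), and over the alternatives the adjusted p ran from 0.00309 to 0.478. Ggnbp1, a gene on the opposite strand that shares 437 exon bases with Bak1 in GENCODE M21, had a log2 change between stages of -0.56 in deficient (adjusted p = 9.08e-06) and -0.09 in sufficient cells (adjusted p = 0.340). With deletion its change was -0.60 in Th17 cells (adjusted p = 1.21e-05) and -0.13 in IL-7 cells (adjusted p = 0.483), and the difference between these was -0.47 (adjusted p = 0.00564). The shared bases are 437 of the 2407 merged exon bases of Bak1. As the strand setting of the counting is not given, reads of Bak1 and Ggnbp1 there cannot be told apart.

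Per kilobase of merged exons, which allows a comparison between genes, Bcl2 averaged 409 normalized counts in deficient and 804 in sufficient Th17 cells. Bak1 stood at 407 and 700 in those groups, and Bcl2l1 at 246 and 423. In IL-7 cells Bcl2 averaged 2066 in deficient and 2529 in sufficient libraries, against 355 and 504 for Bak1 and 134 and 237 for Bcl2l1. Per length, then, Bcl2 exceeded Bak1 by a wide margin in both IL-7 groups and lay much closer to it in both Th17 groups.

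Ratios within a library do not depend on its scaling. The log2 ratio of Bcl2 to Bak1 counts averaged 1.86 ± 0.545 in deficient Th17 cells and 4.47 ± 0.124 in deficient IL-7 cells, a difference of -2.61. In sufficient cells it was 2.12 ± 0.240 in Th17 and 4.29 ± 0.433 in IL-7 cells, a difference of -2.17 (SD, n = 4 each). The ratio of Bcl2l1 to Bcl2 differed the other way, by 3.30 between deficient Th17 and IL-7 cells and by 2.53 between sufficient Th17 and IL-7 cells. The groups overlapped neither in these 4 comparisons nor for Bcl2l1 to Bak1 between deficient Th17 and IL-7 cells (0.69), and the two-sided exact permutation p was 0.0286 for each, the smallest that 4 against 4 libraries allow. Adjusted over the 12 ratio tests, these 5 had a p of 0.0686, and no ratio passed the threshold. Between deficient and sufficient cells no ratio separated the groups: the Bcl2 to Bak1 ratio differed by -0.26 in Th17 and 0.18 in IL-7 cells, and the exact permutation p of the 6 deletion comparisons of ratios ran from 0.257 to 0.914.

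**Figure D4:**
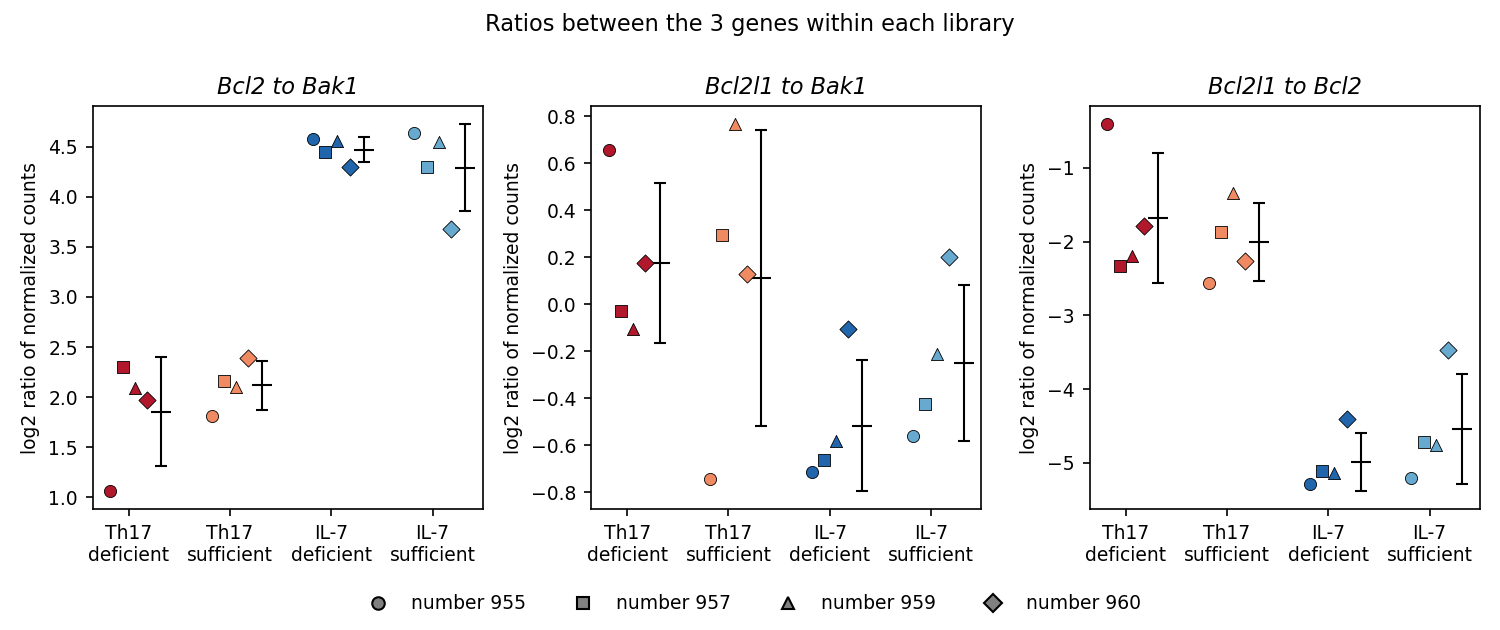
Log2 ratios of normalized counts between the genes in each of the 16 libraries, by group, with the mean and SD as a bar beside the points and marker shapes for the library numbers. Bcl2 to Bak1 is lower in every Th17 library than in any IL-7 library, and Bcl2l1 to Bcl2 shows the reverse, while deficient and sufficient groups overlap in each panel.

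Among themselves the genes did not move as 1 unit. Over the 16 libraries Pearson's r of log2 levels was 0.82 between Bcl2l1 and Bak1, -0.43 between Bcl2 and Bcl2l1, and -0.14 between Bcl2 and Bak1. These are descriptions over points that share 4 groups. Likeness was searched only among named genes, all listed as lower in deficient Th17 cells, so part of a shared pattern may come from the listing. Genes with the pattern most like Bcl2, after D630008O14Rik, were Il10ra (r = 0.994), a chain of the IL-10 receptor, and Stat4 (r = 0.990), a transcription factor of IL-12 signalling. Stat4 changed by -1.19 with deletion in Th17 cells and by -2.55 and -1.76 between stages in deficient and sufficient cells. Bcl2l1 was most like Osbpl3 (r = 0.937), Tnfrsf1b (r = 0.936) and Samsn1 (r = 0.926), and Bak1 most like Lsm6 (r = 0.970), Tesc (r = 0.964) and Myo1f (r = 0.954).

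The wider family could be read only where genes are listed as lower in deficient Th17 cells. Of 26 genes of the Bcl2 family, 10 carry such a listing, all 10 could be tied to a row, and 9 were tested, as Bcl2l2 had no settled row. Bax, Bcl2l11 and Bbc3, which encode Bax, Bim and Puma, are among the 16 without that listing and were not analysed here. In Th17 cells 7 of the 9 passed as lower with deletion, the direction that the listing fixes, where 28.5% of all tested rows and 54.6% of named rows did. The list had a median log2 change of -0.79, against -0.04 over all tested rows and -0.43 over named rows. Of the 7 that passed, the 6 with the largest changes were Bok (-1.27), Bcl2, Bnip3l (-0.89), Bnip3 (-0.81), Bak1 and Mcl1 (-0.44), and Mcl1, a short-lived survival protein on which T cells depend, had 4584 ± 545 normalized counts in deficient and 6179 ± 451 in sufficient Th17 cells (limma adjusted p = 0.000149). In IL-7 cells 1 of the 9, Bak1, was past the threshold as lower, where 2.17% of all tested rows and 3.37% of named rows were, with a median of -0.27 against 0.0015 over all tested rows and -0.05 over named rows. Mcl1 had 12290.4 ± 354 in deficient and 14859 ± 964 in sufficient IL-7 cells, a change of -0.27 (adjusted p = 0.0614).

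Between stages Mcl1 and Bcl2 fell and the mitophagy receptor Bnip3 rose in both deficient and sufficient cells, while its relative Bnip3l changed by -0.55 in deficient (adjusted p = 0.000965) and 0.55 in sufficient cells (adjusted p = 0.000961). In deficient cells 3 of the 9 fell and 4 rose, where 49.7% of named rows fell and 28% rose, with a median of 0.20 against -0.07 over all tested rows. In sufficient cells 2 fell and 7 rose, where 34.7% of named rows fell and 40.8% rose, with a median of 0.55 against -0.05 over all tested rows. Mcl1 changed by -1.43 in deficient (adjusted p = 1.44e-11) and by -1.27 in sufficient cells (adjusted p = 9.43e-11). Bnip3 had 3062 ± 1259 normalized counts in deficient Th17 cells against 152 ± 18.9 in deficient IL-7 cells, a rise of 4.19 (adjusted p = 6.04e-11). Bnip3 had 4848 ± 218 in sufficient Th17 cells against 128 ± 22.4 in sufficient IL-7 cells, a rise of 5.24 (adjusted p = 5.01e-12). Bcl2l15 rose by 4.18 in deficient and 3.99 in sufficient cells. Its IL-7 means were low, at 3.26 in deficient and 5.82 in sufficient cells, so the sizes of these rises depend on the pseudocount. Bok, an effector related to Bak1, averaged 5.67 in deficient and 14.5 in sufficient Th17 cells and only 0.220 in deficient and 0.195 in sufficient IL-7 cells, too few for a stage fold.

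**Figure D5:**
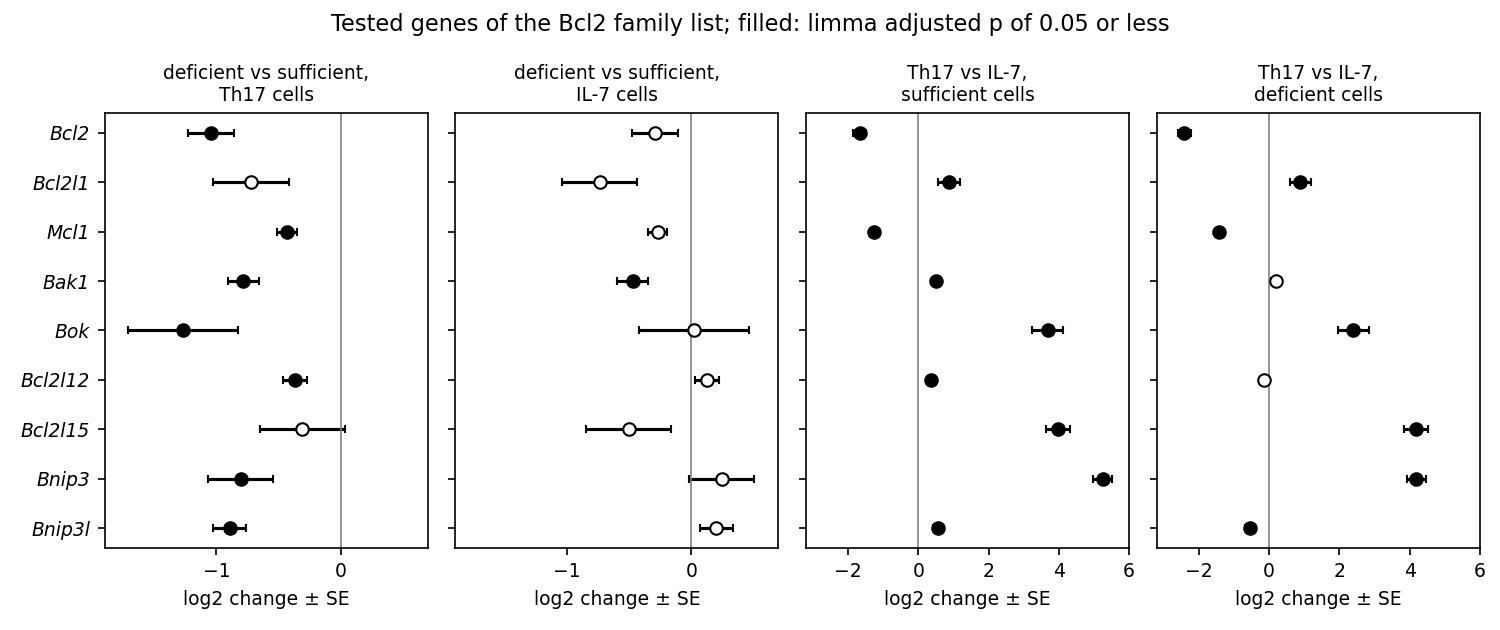
Log2 changes (± SE, horizontal axes) of the 9 tested genes of the Bcl2 family in 4 comparisons. Filled points have a limma adjusted p of 0.05 or less. The first 2 panels share 1 scale and the last 2 another. All 9 Th17 deletion values are below 0, as the listing fixes. The stage values of Bok and Bcl2l15 depend on the pseudocount because their IL-7 counts are low, for Bok near 0.

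The deletion effects on 4 of the 9 differed between stages, each more negative in Th17 cells, where 17.9% of all tested rows and 34.2% of named rows did so. Both the direction and the count are weighted by the listing, since the Th17 deletion change is part of the difference. Beside Bcl2 these were Bnip3l (-1.09, adjusted p = 0.000207), Bnip3 (-1.05, adjusted p = 0.0328) and Bcl2l12 (-0.49, adjusted p = 0.0102). Bnip3l, a mitophagy receptor related to Bnip3, had 1921 ± 310 normalized counts in deficient and 3573 ± 643 in sufficient Th17 cells, and 2777 ± 107 in deficient and 2437 ± 367 in sufficient IL-7 cells. Over the alternatives this count ran from 1 to 5.

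Of 38 genes of the apoptosis machinery, a list that includes the death receptor and p53 pathways, 15 were tested. In Th17 cells 7 of these were lower with deletion, where 28.5% of all tested rows and 54.6% of named rows were. The median of the list was -0.33, against -0.04 over all tested rows and -0.43 over named rows, with changes of -0.81 in Birc2, -0.65 in Mdm4, -0.47 in Birc3, -0.47 in Xiap and -0.33 in Tnfrsf1a among them. Birc2, Birc3 and Xiap encode inhibitor of apoptosis proteins, Mdm4 restrains p53, and Tnfrsf1a encodes a receptor for TNF. Between stages 7 of the 15 fell and 6 rose in deficient cells, where 49.7% of named rows fell and 28% rose. In sufficient cells 6 fell and 8 rose, where 34.7% of named rows fell and 40.8% rose. Genes that rose in both include Casp6 (1.66 in deficient and 2.15 in sufficient cells), a caspase, and Apaf1 (1.38 and 1.70 in that order), the scaffold of the apoptosome.

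Upstream, 11 of 21 genes of the IL-7 and STAT5 survival axis were tested, which carries the cytokine signal known to sustain Bcl2. In Th17 cells 8 were lower with deletion, where 28.5% of all tested rows and 54.6% of named rows were, with a median of -0.41 against -0.43 over named rows. Of these 8 the largest changes were in Il2rb (-0.96), Jak3 (-0.88), Stat5b (-0.59), Pim2 (-0.54), Pim1 (-0.46) and Il2rg (-0.41). In IL-7 cells 3 of the 11 fell, against 2.17% of all tested rows and 3.37% of named rows, and the median was -0.43 against -0.05 over named rows. Il2rg, the common cytokine receptor chain that also serves the IL-7 receptor, had 5684 ± 289 normalized counts in deficient and 7678 ± 821 in sufficient IL-7 cells (-0.43, adjusted p = 0.00539). Cish, a STAT5 target that restrains cytokine signalling, had 2198 ± 224 in deficient and 4019 ± 1334 in sufficient IL-7 cells (-0.82, adjusted p = 0.00800). Pim1, a survival kinase also induced by STAT5, had 7259 ± 465 in deficient and 11323 ± 668 in sufficient IL-7 cells (-0.64, adjusted p = 0.0380). The count of 3 ran from 0 to 6 over the alternatives and was 3 without sufficient IL-7 library BASAL960.

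Il7r, the IL-7 receptor chain itself, did not pass the threshold with deletion, at 4144 ± 613 normalized counts in deficient and 4786 ± 1102 in sufficient Th17 cells and 12514 ± 2639.6 in deficient and 12207 ± 3696 in sufficient IL-7 cells. Like Bcl2, Il7r fell between stages, with log2 changes of -1.58 in deficient (adjusted p = 2.18e-06) and -1.32 in sufficient cells (adjusted p = 2.09e-05). Jak3, the kinase bound to Il2rg, rose between stages by 2.78 in deficient and 3.00 in sufficient cells, unlike Il7r. Of the 11, 4 fell and 4 rose in deficient cells, against 49.7% and 28% of named rows, and 4 fell and 5 rose in sufficient cells, against 34.7% and 40.8% of named rows.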

How the data were processed

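RNA was measured in 16 libraries of 4 groups of 4. The submitters' processing notes name Trim Galore 0.4.4, STAR 2.6, featureCounts, edgeR and DESeq2 and the mouse build NCBIM37, and no settings. Per the file headers, the deposited table holds the authors' log2 fold changes with their p-values and adjusted p-values for 8552 named genes, all below 0, and 16 columns of other deposited values, normalized counts whose decimal points were lost and whose lines do not follow the names.

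Each library's values were taken as whole reads times 1 step, which held for 99.993% of nonzero values within a relative 2e-09. The 4 libraries of each group were compared to choose the powers of 10, which raised 8.61% of nonzero values. Rows with a posterior of at least 0.95 in every group counted as settled, 14961 in all (83.8%). A name was joined to the row that gave the authors' log2 fold change within 1e-06, with the next row at least 20 times farther, for 8037 genes (94.0%). Of 1000 decoys, which have a shifted fold change, 22 were joined. For Bcl2, Bcl2l1 and Bak1 the next row was 10600, 5940 and 12100 times farther, with 1, 2 and 2 of their 16 values raised. Restoring and fitting were checked on simulated data.

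limma 3.58.1 (R 4.3.3, trend) was fitted to log2(normalized count + 1) over all 16 libraries and the 14588 settled rows averaging at least 5, with Benjamini-Hochberg adjustment over all of them and a threshold of 0.05. Changes are on that scale, which understates those of low genes. Ratios used exact permutation tests. Alternatives changed the pseudocount, filter, scaling, model and libraries.

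The genes and lists were chosen with earlier results of these data known. Named were the 3 genes and list genes that could be tested. Where a list had more than 6 calls in a comparison, at most 6 with the largest changes were named. For likeness these were the 3 genes with the highest r among genes listed as lower and averaging at least 10. Sequences are from RefSeq, exon overlaps and lengths from GENCODE M21, both of another build than the counting. A result of the apoptosis machinery list in IL-7 cells is not reported here.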

Additional observations from a re-analysis of the deposited data

Results flagged for a closer look

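In deficient IL-7 cells, library BASALTAM960 stood far above the other 3 libraries for Bcl2l1, at 876 normalized counts against 504 to 547, and for Bak1, at 945 against 821 to 827. The gap to the nearest library was 0.883 and 0.947 of the whole range, above Dixon's 95% limit for 4 libraries, which chance passes in about 1 in 20 groups. BASAL960 was likewise the highest of the sufficient IL-7 libraries for both genes, at 1942 for Bcl2l1 and 1689 for Bak1, where the gaps were 0.818 and 0.680 of the range.

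The deletion effect differed between stages, by limma's test of the difference over all rows, for 8 genes of the lists. The difference (Th17 minus IL-7, log2) was -0.75 for Bcl2, -0.49 for Bcl2l12, -1.05 for Bnip3 and -1.09 for Bnip3l. It was -0.39 for Xiap, -0.73 for Birc2, -0.62 for Mdm4 and -0.53 for Stat5b. Named genes are all listed as lower in deficient Th17 cells, so the direction of these differences is weighted by the listing.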

How the results depend on the processing

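No result that passed the threshold changed sign, and 7 of the 15 changes of the 3 genes kept their call under every alternative run, among them both Bcl2 stage changes and the Th17 deletion changes of Bcl2 and Bak1. Bcl2l1 with deletion in Th17 cells passed with a pseudocount of 5 (-0.72, adjusted p = 0.0486), voom weights (-0.72, 0.0415), only the 2 groups (-0.72, 0.0386) and the replicate block (-0.72, 0.0376). Bak1 in IL-7 cells missed the threshold without a trend (-0.47, 0.0834) and with only the 2 groups (-0.47, 0.143). The Bcl2 difference missed it without a trend (-0.75, 0.0599). With only the 2 groups, Bcl2 in IL-7 cells (-0.29, 0.0453) and Bak1 between stages in deficient cells (0.20, 0.0261) passed. The cause was not tested.

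Leaving out libraries or numbers moved the Bcl2l1 Th17 deletion change from -1.14 to -0.39, Bak1 in IL-7 cells from -0.56 to -0.30, the Bcl2 difference from -0.94 to -0.48 and the Bak1 difference from -0.48 to -0.22. The Bcl2l1 stage change ran from 0.58 to 1.21 in sufficient and from 0.65 to 1.07 in deficient cells, where it missed the threshold without the 4 libraries numbered as BASAL957 (0.86, adjusted p = 0.0645). Bak1 between stages in deficient cells ran from 0.14 to 0.24. Rows called with deletion in IL-7 cells numbered 608, and 62 to 730 with libraries left out, with 62 without the 4 libraries numbered as BASAL957 and 164 without those numbered as BASAL959. It was 274 without BASALTAM957, 317 without BASALTAM955, 382 without BASALTAM959 and 353 without BASAL957. Rows with a difference between deletion effects numbered 5461, and 3314 to 5934 with libraries left out.

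The numbers were not treated as pairs: in 24 pairs of same-numbered libraries the correlation of deviations ran from 0.00125 to 0.371, over 0.1 in 12, and was highest with the own number in 22. With the block 878 rows were called with deletion in IL-7 cells. No ratio passed in any of its 84 alternatives, though with a number left out or with the block none could, as the smallest exact permutation p is then 0.1 and 0.125. Of 5555 other values, 5309 kept their call, 132 lost it, 61 gained it and 53 counts moved by over 1.5 times.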
